A study of Capra hircus with 6 samples.

Results

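The T cell genes described here are 10 genes by which T lymphocytes are commonly recognised. They are CD3D, CD3E and CD3G of the T cell receptor complex, the coreceptors CD4 and CD8A, the kinases LCK and ZAP70, and the surface proteins CD2, CD28 and CD5. Each was taken from the deposited gene table by its symbol, and all 10 were found, each at 1 locus, among 26938 loci. RNA had been sequenced from flank skin of 6 female Changthangi Pashmina goats aged 26 months, kept on 1 farm and sampled at the same time point. White, brown and black coats were represented by 2 goats each, and the colour of the coat is the only difference between the groups that the labels give. The design text of the series names grey goats in place of brown and a larger number per colour, and the sample labels were followed here. No treatment was applied to any group except the shaving and local anaesthesia that preceded every biopsy. The values are FPKM, fragments counted per kilobase of the exons of a gene and scaled to the size of the library, a level corrected for gene length. The deposited table holds 1 FPKM per colour and locus, which combines the 2 goats of that colour. No spread between goats could therefore be computed, no difference below was tested, and the differences are described by their size only. Fragment counts cannot be read from FPKM, so the depth behind each level is unknown.

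T cells recognise peptides through a receptor whose variable chains do not signal by themselves. The signal is carried by the CD3 chains, whose cytoplasmic tyrosine motifs are phosphorylated by LCK and then bind ZAP70. CD4 and CD8 bind the presenting molecule and bring LCK to the receptor, CD28 gives the costimulatory signal, CD2 strengthens adhesion to the partner cell, and CD5 dampens the response. Healthy skin holds resident T cells in the dermis, in the epidermis and around hair follicles. In mice, regulatory T cells of the skin gather around the follicles. A biopsy mixes all of these with keratinocytes, fibroblasts, glands and vessels, so that fewer T cells and less RNA per T cell cannot be told apart in these data.

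All 10 T cell genes had their highest FPKM in white skin. Brown skin had the lowest FPKM of 7 of them, CD3D, CD3E, CD3G, CD2, CD4, CD5 and ZAP70, and black skin that of the other 3, CD8A, LCK and CD28. How many of all loci had white highest or brown lowest was not counted, here or for the lists below. Loci were compared where FPKM was at least 0.5 in one of the colours compared and above 0 in both. Of these, 69.2% were higher in white than in black, 54.0% lower in brown than in white and 29.2% lower in brown than in black. A highest level in white is thus not by itself particular to the T cell genes. The FPKM of the 10 genes summed to 35.6 in white, 27.0 in black and 21.0 in brown skin, and without CD3E, the gene with the highest level, to 24.3, 18.9 and 14.3. The levels were low. Their median was 2.93 FPKM in white, 2.18 in black and 1.99 in brown skin, and 40.9%, 39.5% and 36.3% of the loci with an FPKM above 0 lay below that median in the respective colour. For comparison, the basal keratin KRT14 of epidermal keratinocytes had 8995 FPKM in white skin, 12437 in brown and 7238 in black, and COL1A1, the main collagen chain of dermal fibroblasts, had 475, 306 and 258. These are the levels of a skin biopsy in which T cell transcripts are a small part. An FPKM of at least 1 was reached by 9 of the 10 genes in white, by 8 in black and by 7 in brown skin.

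**Figure D1:**
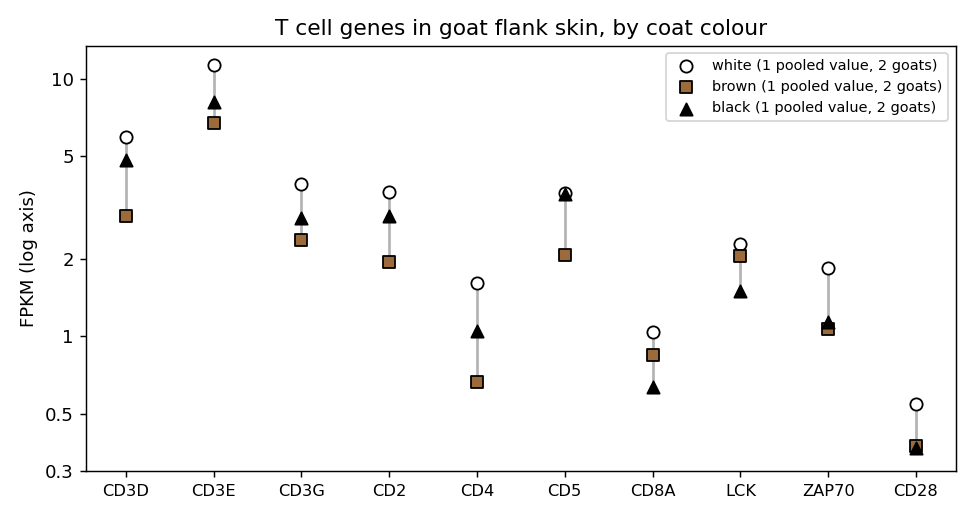
FPKM of the 10 T cell genes on a log axis, with 1 point per coat colour, each a value pooled over 2 goats, and a line from the lowest to the highest colour. White lies at the top for all 10 genes, and brown at the bottom for 7 of them, from 0.667 FPKM at CD4 to 6.70 FPKM at CD3E in brown skin.

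The CD3 chains form the part of the receptor complex that every conventional T cell carries. CD3E, the epsilon chain, had 11.3 FPKM in white, 8.13 in black and 6.70 in brown skin. CD3D, the delta chain, had 5.92 FPKM in white, 4.83 in black and 2.92 in brown skin. CD3G, the gamma chain, had 3.90 FPKM in white, 2.87 in black and 2.36 in brown skin. The 3 chains thus kept 1 order of colours, and the level in white was 2.03 times that in brown for CD3D, 1.68 times for CD3E and 1.65 times for CD3G. Their summed FPKM was 21.1 in white, 15.8 in black and 11.98 in brown skin. Within that sum the share of CD3E was 53.4% in white, 51.4% in black and 55.9% in brown skin, and the share of CD3G 18.5%, 18.1% and 19.7%. CD3D made up 28.1%, 30.5% and 24.4%, so its share was lowest in brown skin. CD247, the zeta chain of the same complex, had 11.1 FPKM in white, 10.3 in black and 8.19 in brown skin, which is again the order white, black, brown but with a smaller difference, a log2 ratio of brown over white of -0.44.

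The genes of the delta, epsilon and gamma chains lie together on goat chromosome 15. In the coordinates of the deposited table, whose genome build is not given in the sources used here, CD3D runs from 27310003 to 27314340 and CD3G from 27315883 to 27328529, with 1542 bases between them. CD3E is listed from 27204774 to 27305803, a span of 101030 bases, which the table also gives for its neighbours MPZL2 and MPZL3. It was the only one of the 10 T cell genes that shared its listed coordinates with another gene, and its value may depend on how fragments were divided among these genes, which was not tested. MPZL2, an adhesion protein of epithelial cells, had 74.1 FPKM in white skin, 70.2 in brown and 45.8 in black. MPZL3, also expressed in epidermis, had 21.7 FPKM in white skin, 19.3 in brown and 15.8 in black. Both neighbours had their lowest level in black and not in brown skin, with log2 ratios of brown over white of -0.08 and -0.17 against -0.75 for CD3E. The gene on the other side of the cluster, the ubiquitin ligase UBE4A, had 21.5 FPKM in white skin, 20.7 in brown and 15.9 in black. AMICA1, an adhesion molecule of leukocytes that precedes CD3E in the table, had 10.5 FPKM in white, 9.26 in black and 7.46 in brown skin, the order of the CD3 chains.

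**Figure D2:**
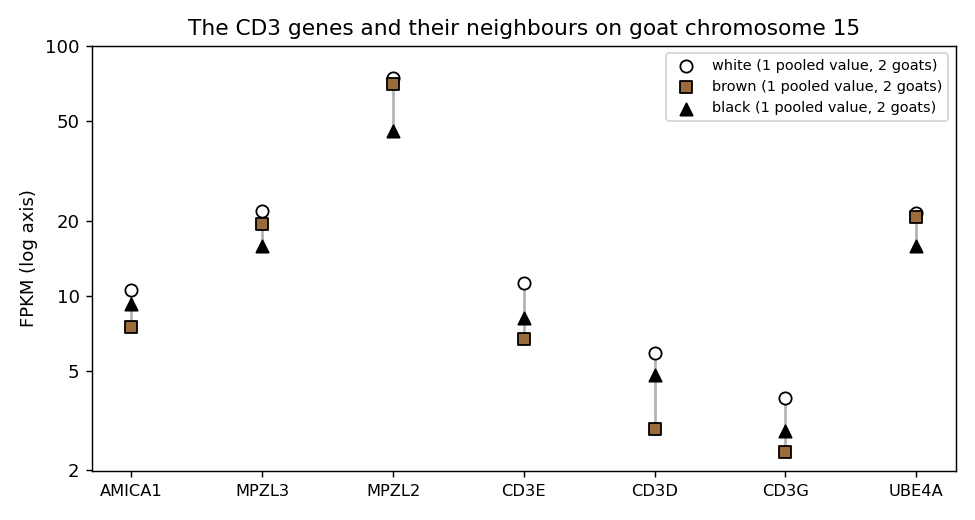
FPKM on a log axis of the CD3 genes and the genes beside them on chromosome 15, in their order along the table's coordinates (CD3E, MPZL2 and MPZL3 have the same coordinates there), with 1 pooled value per coat colour. The CD3 genes and AMICA1 have brown at the bottom, for CD3D at 2.92 FPKM, whereas MPZL2, MPZL3 and UBE4A have black at the bottom.

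Among conventional T cells, helper cells mostly carry the coreceptor CD4 and cytotoxic cells the coreceptor CD8. CD4 (chromosome 5, from 94759496 to 94782440) had 1.61 FPKM in white, 1.05 in black and 0.667 in brown skin. With a ratio of 2.41 between the highest and the lowest colour it varied more than any other of the 10 genes. This rank rests on its low level in brown skin. With 1 FPKM added to every value, its log2 ratio of brown over white was -0.65, against -0.82 for CD3D, -0.67 for CD3E and -0.66 for CD2. CD8A (chromosome 11, from 47589844 to 47602264) had 1.03 FPKM in white skin, 0.844 in brown and 0.638 in black. The coreceptors therefore differed in their order, with black above brown for CD4 and brown above black for CD8A. The ratio of CD4 to CD8A was 1.56 in white, 1.65 in black and 0.790 in brown skin, so that brown was the colour in which the CD8A level exceeded the CD4 level. Both genes were under 1 FPKM in brown skin, so their order there carries little, and a ratio of FPKM is not a ratio of cells. CD8B, the beta chain of the CD8 coreceptor and not among the 10 genes, had 1.17 FPKM in brown, 0.892 in black and 0.758 in white skin. In several species CD4 is also expressed by macrophages and dendritic cells, and markers of these cells differed between the colours as well, as given further below.

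The kinases carry the signal from the receptor into the cell. LCK (chromosome 2, from 120702312 to 120722531), which phosphorylates the CD3 chains, had 2.28 FPKM in white skin, 2.05 in brown and 1.496 in black. ZAP70 (chromosome 11, from 3201138 to 3232630), which is recruited to the phosphorylated chains, had 1.84 FPKM in white, 1.13 in black and 1.07 in brown skin. LCK in brown skin stayed close to its level in white, with a log2 ratio of -0.16, the smallest difference between these colours among the 10 genes, whereas the log2 ratio of ZAP70 was -0.79. The ratio of LCK to ZAP70 was accordingly 1.92 in brown, 1.32 in black and 1.24 in white skin, and the ratio of LCK to CD3D 0.701 in brown, 0.386 in white and 0.310 in black skin.

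CD2 (chromosome 3, from 24449202 to 24464212), an adhesion receptor of T and natural killer cells, had 3.63 FPKM in white, 2.94 in black and 1.94 in brown skin. Its level per unit of CD3G was close to 1 in each colour, with ratios of 0.930 in white, 1.02 in black and 0.821 in brown skin. CD5 (chromosome 29, from 36215524 to 36237903), an inhibitory receptor of T cells that a subset of B cells also carries, had 3.58 FPKM in white, 3.56 in black and 2.06 in brown skin. White and black thus had nearly the same CD5 level, a log2 ratio of 0.01, the smallest of the 10 genes in that comparison. CD28 (chromosome 2, from 91206880 to 91242493), the costimulatory receptor, had the lowest levels of the 10 genes, with 0.545 FPKM in white skin, 0.374 in brown and 0.368 in black. Its levels in brown and black differed by 0.02 on the log2 scale, so that their order carries little.

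The comparison of brown with white skin held the largest differences. All 10 T cell genes had a log2 ratio of brown over white below 0, from -0.16 for LCK to -1.27 for CD4, with a median of -0.77. Of all loci with an FPKM of at least 0.5 in one of the colours compared and above 0 in both, 54.0% had a ratio below 0 in this comparison, with a median of -0.04. Among loci with a mean of 0.5 to 10 FPKM over the colours, the range that holds all 10 genes but CD28, 58.4% were below 0, the median was -0.10 and the lower quartile -0.43. Of the 10 genes, 8 lay below that quartile, all but CD8A and LCK. A level at least 2-fold lower in brown was found for 2 of the 10 genes, CD4 and CD3D, against 5.83% of all loci and 6.51% of those with a mean of 0.5 to 10 FPKM. CD3D stood at the threshold, with a log2 ratio of -1.02, and CD4 had only 0.667 FPKM in brown skin. With 1 FPKM added to every value, neither gene reached 2-fold. None of the 10 was at least 2-fold higher in brown, against 3.03% of all loci.

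White and black skin differed less in these genes, and most loci were shifted in the same direction. All 10 had a log2 ratio of white over black above 0, from 0.01 for CD5 to 0.70 for ZAP70 and CD8A, with a median of 0.52. Of all loci, 69.2% had a ratio above 0 in this comparison, with a median of 0.26, and of those with a mean of 0.5 to 10 FPKM 74.7%, with a median of 0.38 and an upper quartile of 0.77. None of the 10 genes exceeded that quartile. None was at least 2-fold higher or lower in white, against 11.9% and 2.74% of all loci, so the T cell genes stood no further from 0 than many other loci did in this comparison. Among the 13050 loci that reached 1 FPKM in white as well as in black the median was 0.23, and relative to it the median of the 10 genes was 0.29 and 9 of them remained above 0, with CD5 at -0.22.

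Between brown and black skin the T cell genes went against the shift of the table. CD28 had less than 0.5 FPKM in both colours and was not counted. Of the other 9 genes, 7 had a log2 ratio of brown over black below 0, from -0.09 for ZAP70 to -0.79 for CD5, and CD8A and LCK had 0.40 and 0.45. Of all loci 29.2% had a ratio below 0, and of those with a mean of 0.5 to 10 FPKM 28.1%, with a median of 0.29 and a lower quartile of -0.05. The median of the 9 genes was -0.28, and -0.48 relative to the median of 0.20 over loci that reached 1 FPKM in each of these colours. None of the 9 reached 2-fold in either direction, against 1.78% of all loci lower and 4.54% higher in brown. Each colour enters a pair of these comparisons with the same pooled value, so the comparisons are not independent.

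**Figure D3:**
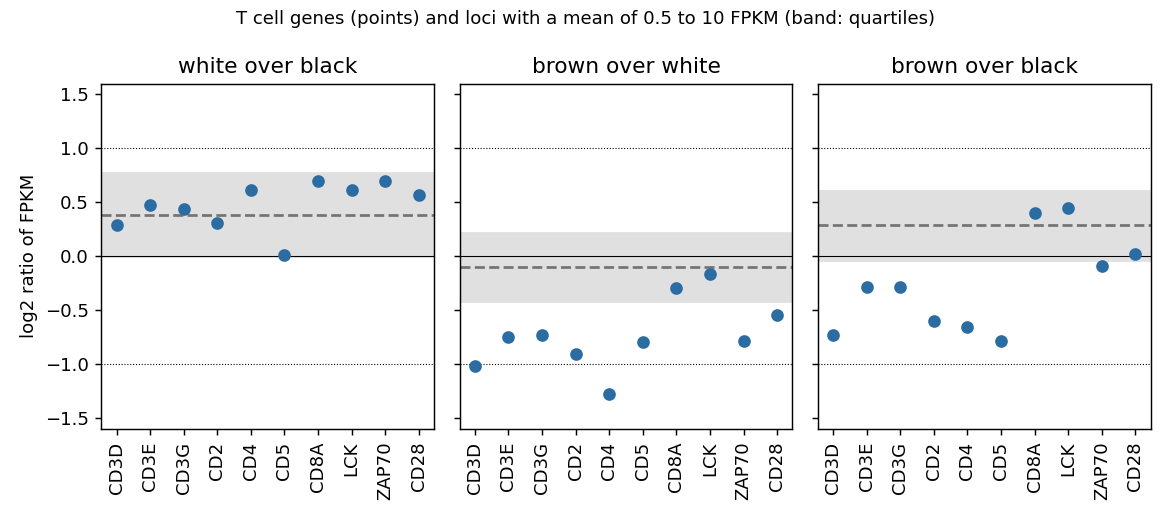
Log2 ratio of FPKM of the 10 T cell genes (points) in each comparison of colours, with the quartiles (grey band) and median (dashed line) of loci with a mean of 0.5 to 10 FPKM and dotted lines at 2-fold. In white over black all points lie within the band, and in brown over white 8 of 10 lie below its lower edge at -0.43. CD28 is drawn in each panel although it was not counted in brown over black.

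Other genes that T cells use were examined in 6 further lists, of which 98 genes were found outside the 10. Many of them are shared with other cells of the skin. Of the 74 that passed the limits on FPKM in brown and white skin, 56 had a ratio of brown over white below 0, or 75.7%, and 14, or 18.9%, were at least 2-fold lower, against the 5.83% of all loci, and 1 was at least 2-fold higher, with a median log2 ratio of -0.48. Of the 76 counted between white and black, 61 had a ratio above 0 and 12 were at least 2-fold higher in white, or 15.8% against 11.9% of all loci, and 2 were lower, with a median of 0.53. Between brown and black the 72 genes counted divided into 35 above and 37 below 0, or 51.4% below 0 against 29.2% of all loci, with a median of -0.01. At least 2-fold higher and lower in brown were 2 each, or 2.78%, against 4.54% and 1.78% of all loci.

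Of the signalling genes downstream of the receptor, 24 were found and 21 had their highest level in white skin. Black was the lowest colour for 18 of them and brown for 5, which is not the order of the CD3 chains. SKAP1, an adaptor that links the receptor to integrins, had 3.16 FPKM in white skin, 2.22 in brown and 1.25 in black, and was at least 2-fold higher in white than in black. The phosphatase PTPN6 and the kinase CSK, which restrain the signal and are expressed in many leukocytes, had the highest mean levels of the list, with 21.2 and 18.1 FPKM in white skin, 15.1 and 16.2 in brown and 14.8 and 17.6 in black.

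The list of other surface and costimulatory genes held 25 genes, of which 16 had their highest level in white and 13 their lowest in brown skin. SLAMF1, a receptor of activated lymphocytes, had 1.57 FPKM in white, 0.810 in black and 0.184 in brown skin. ICOS, an inducible relative of CD28, had 1.83 FPKM in white, 1.13 in black and 0.701 in brown skin. CD6, another surface gene of the list, had 2.35 FPKM in white, 1.35 in black and 1.16 in brown skin. These 3 of the 19 genes counted were at least 2-fold lower in brown than in white, against 5.83% of all loci. The lowest of these levels, that of SLAMF1 in brown skin, was far under 1 FPKM. At least 2-fold higher in brown was 1 gene. CD7, a surface protein of T and natural killer cells, went the other way, with 16.3 FPKM in black, 13.5 in brown and 5.69 in white skin.

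Of the 15 transcription factors, 13 had their highest level in white skin, and 6 of 13 counted were at least 2-fold higher in white than in black, against 11.9% of all loci. GATA3, which directs helper T cells but is also a factor of the epidermis and the inner root sheath, had 48.2 FPKM in white skin, 23.7 in brown and 16.9 in black. IKZF3, a lymphoid factor, had 2.53 FPKM in white skin, 1.19 in brown and 1.23 in black. FOXP3, the defining factor of regulatory T cells, had 0.557 FPKM in white, 0.449 in black and 0.213 in brown skin, and its order of colours was that of the CD3 chains.

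Among 18 homing receptors and adhesion molecules, 13 had their highest level in white and 11 their lowest in brown skin. CCR7, the receptor that leads T cells towards lymph nodes, had 1.89 FPKM in white, 1.20 in black and 0.735 in brown skin. CXCR4, a receptor found on most leukocytes and on other cells of the skin, had 20.9 FPKM in white skin, 22.4 in brown and 22.2 in black.

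The chemokines that attract T cells did not share an order. CCL27, made by keratinocytes and a ligand of the skin homing receptor CCR10, had 168 FPKM in white skin, 47.1 in brown and 41.3 in black. CCL17, a ligand of CCR4, had 7.11 FPKM in white, 0.883 in black and 0.404 in brown skin. CCL19, a ligand of CCR7, had its highest level in black skin, with 25.4 FPKM against 9.91 in brown and 3.66 in white. Of the receptors of these ligands, CCR10 had 0.920 FPKM in white skin, 0.755 in brown and 0.739 in black, and CCR4 1.05, 0.641 and 0.881. The invariant chain CD74, which accompanies the class II molecules that CD4 binds, had 459 FPKM in white, 267 in black and 177 in brown skin, and CIITA, the activator of class II genes, 2.27, 1.24 and 1.01. Both were at least 2-fold lower in brown than in white, and they were among the 3 of 9 genes of the antigen presentation list to be so, against 5.83% of all loci. CD40, a receptor of antigen-presenting cells, had 7.72 FPKM in black, 7.63 in brown and 3.70 in white skin, and was the 1 gene of the list at least 2-fold higher in brown than in white.

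Markers of other leukocytes moved with the T cell genes in part. Of 14 genes of all leukocytes, 13 had their highest level in white skin, and all 14 had a ratio of brown over white below 0, with a median log2 ratio of -0.62, between -0.08 for HCLS1 and -1.20 for CD48. The leukocyte genes summed to 263 FPKM in white skin, 189 in brown and 214 in black. Relative to their median, the median of the 10 T cell genes was -0.15 in brown over white, with 7 genes below 0 and CD8A, LCK and CD28 above. In white over black it was 0.08, with 6 genes above 0, and in brown over black -0.32. The leukocyte genes thus came close to the T cell genes in brown over white. T cells express genes of all leukocytes too, and PTPRC and IKZF1 also stand in the T cell lists above. Scaling to them can therefore remove part of a difference in T cell transcripts. In brown over black they had a median of 0.04 and 7 of 14 on either side of 0. Medians below 0 in brown over black were not particular to the T cell genes. Macrophage markers had -0.41 (7 of 8 below 0), dendritic and Langerhans cell markers -0.50 (5 of 7) and neutrophil markers -1.46 (8 of 8). Medians of mast cell, B cell and plasma cell markers were above 0, at 0.44, 0.50 and 0.30.

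The 9 macrophage markers found summed to 135 FPKM in white, 119 in black and 98.5 in brown skin, and 5 were highest in white and 3 in black. C1QA, a complement subunit made by macrophages, had 37.1 FPKM in white, 23.5 in black and 17.7 in brown skin, whereas MSR1, a scavenger receptor, had 2.92 FPKM in black, 2.18 in brown and 0.760 in white skin. The 8 dendritic and Langerhans cell markers summed to 26.3 FPKM in white skin, 29.6 in brown and 40.3 in black, most of it BATF3 and CD207. As single genes, 5 of the 8 were highest in white and 3 in black. Their median log2 ratio of brown over white was -0.71, near that of the T cell genes, with 5 of 7 counted below 0 and 2 above. FLT3, a growth factor receptor of dendritic cells, had 1.75 FPKM in white, 0.674 in black and 0.460 in brown skin, and CD207, the langerin of Langerhans cells, 5.86, 11.7 and 9.24. Of the 8 neutrophil markers counted between white and black, 7 were lower in white and 1 was higher, and the 9 found had sums of 54.9 FPKM in white skin, 407 in brown and 1422 in black, most of it S100A8 and S100A12, which inflamed keratinocytes also make. The fibroblast sums were 2460 FPKM in white skin, 2051 in brown and 1561 in black, and the 6 keratinocyte markers had 4 of their highest levels in brown. The part of any of these cells in the levels of the T cell genes was not tested.

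**Figure D4:**
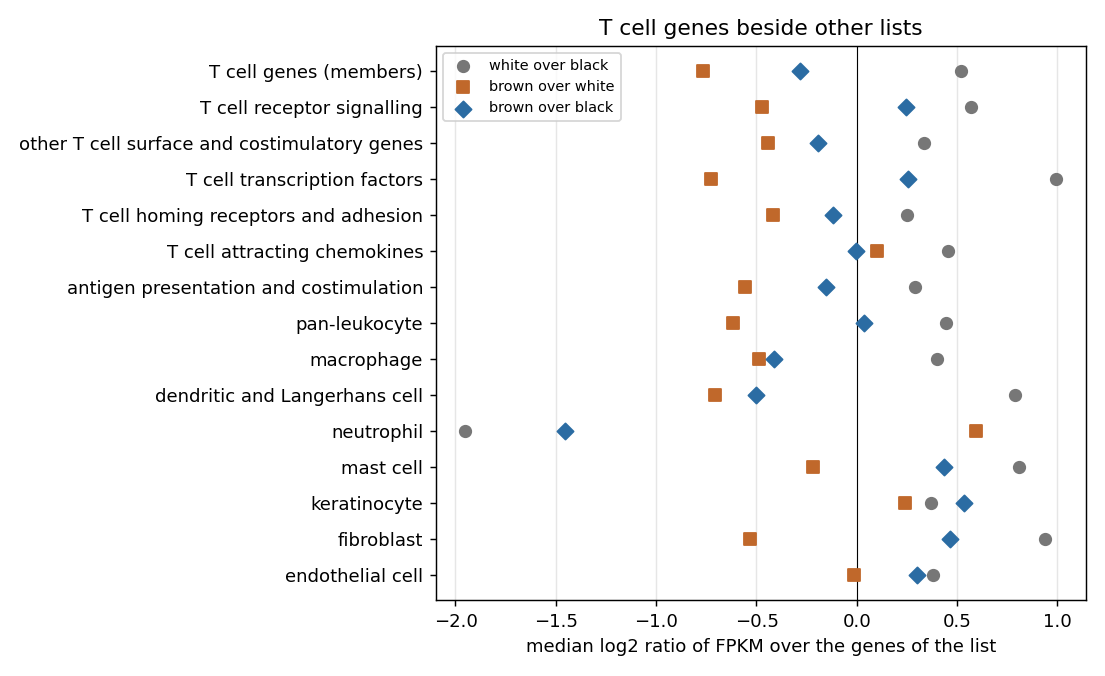
Median log2 ratio of FPKM over the genes of each list in the comparisons of colours, for the 10 T cell genes (top row) and for lists of other genes. In brown over white the T cell genes, with -0.77, have the lowest median of the lists drawn. Next come T cell transcription factors with -0.73, dendritic and Langerhans cell markers with -0.71 and the pan-leukocyte list with -0.62. The neutrophil list lies on the other side of 0 from the T cell genes in white over black and in brown over white.

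The 10 genes differed among themselves in their profile over the colours. As a measure, the log2 FPKM of each gene in the 3 colours were centred on their mean, and the distance to the mean profile of CD3D, CD3E and CD3G was taken. CD2 lay at 0.12, ZAP70 at 0.26, CD4 and CD5 at 0.31 and CD28 at 0.32, whereas CD8A lay at 0.60 and LCK at 0.65. Among 11392 other named loci with a mean of at least 1 FPKM, the nearest were CD300E (distance 0.0014), NFAM1 (0.013), C19H17orf67 (0.026), MYO1F (0.026) and CEACAM19 (0.030). CD300E had 3.82 FPKM in white, 2.89 in black and 2.15 in brown skin. CD300E, NFAM1 and MYO1F are known from cells of the blood lineage, with CD300E a receptor of myeloid cells. With only 3 values per gene the profile is coarse, and 298 loci, or 2.62%, lay within a distance of 0.25.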

How the data were processed

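Skin of 6 goats, 2 per coat colour, was sequenced from poly-A RNA as paired reads. Reads with a quality over 20 and a length over 25 were kept by the authors and mapped with TopHat 2.1.0 to NCBI's goat genome, indexed with Bowtie 2.2.6 (Bowtie2 version 2 in the submitters' notes), with at most 1 seed mismatch and with every position of a multiply mapped read reported. The deposited FPKM values come from the authors' Cufflinks 2.2.1 and CuffDiff runs, 1 per colour over its 2 goats; the scaling of libraries and the build are not given in the sources used here. Reads from overlapping or near-identical genes may have been divided among them, and the kit is not stated to keep strand. The other columns of the table hold the authors' fold changes, test statistics, p- and q-values, and were not used.

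A colour had the same FPKM in both of its comparisons (largest difference 0). Log2 ratios were computed with pandas 2.3.3 and numpy 2.4.6 in Python 3.11.15, with no pseudocount, for loci with an FPKM of at least 0.5 in one of the colours compared and above 0 in both, and counted from 2-fold. This step was tested on simulated data. No test across goats was possible. Starts were counted from 1. Chromosomes are those which at least 92.7% of the matched gene names of a sequence have in RefSeq's ARS1.2 assembly, used for names only, where 9 of the 10 symbols were found. The alternatives were pseudocounts, limits on FPKM, centring, scaling to leukocyte genes, 1.5-fold, and leaving out CD4 or, chosen after seeing the data, CD3E.

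The 10 genes and the 9 further lists and 11 marker lists were chosen with earlier results of these data known. From each list the text names up to 2 genes past 2-fold with the largest ratio in each direction and the 2 with the highest mean FPKM, or some of these. CD247, CD6, CD8B, FOXP3, IL17A, IL23R, AMICA1, MPZL2, MPZL3, UBE4A, CCR4, CCR10 and HCLS1 were named after their values were seen. Some genes of these lists are not reported here.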

Additional observations from a re-analysis of the deposited data

How the results depend on the processing

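The count of T cell genes at least 2-fold lower in brown than in white, 2, depended on the settings. It was 1 with 0.1 FPKM added to each value, with at least 1 FPKM required in each of the colours, relative to the median of all loci, relative to loci of similar span and without CD4, and 0 with 1 FPKM added and relative to pan-leukocyte genes. With a 1.5-fold threshold it was 7, against 14.1% of all loci, and then 4 genes were higher in white than in black, against 28.3%, and 4 lower in brown than in black, against 4.36%. The median log2 ratio of brown over white moved by more than 1.5-fold in 1 alternative, from -0.77 to -0.15 relative to pan-leukocyte genes, and was between -0.56 and -0.79 in the others. The pan-leukocyte genes are expressed by T cells as well. The median of white over black stayed above 0 (0.08 to 0.57) and that of brown over black below 0 (-0.25 to -0.70). Single genes changed sign in 10 of the ratios recomputed, 7 of them relative to pan-leukocyte genes; CD5 in white over black did so in each of the 3 scalings. Without CD3E the median of brown over white was -0.79. No paired analysis was possible because the table holds 1 pooled value per colour, and for the same reason no goat could be left out. The unknown number of fragments limits what can be said of genes under 1 FPKM.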

Other observations

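Genes of cytotoxic lymphocytes had no common order of colours. Of 12 found, 5 were highest in white skin, 3 in brown and 3 in black, and IFNG was listed at 0 in all. Only 6 of the 12 passed the limits on FPKM in each comparison, so the order of the others carries little. Of the 19 genes listed, GZMA, GZMB, GZMH, KLRD1, KLRK1, KLRB1 and KLRG1 were not found. NKG7, a granule protein, had 4.31 FPKM in white, 4.15 in black and 3.73 in brown skin. CD244 and NCR3, receptors of natural killer cells and some T cells, had 4.37 and 1.99 FPKM in white, 1.76 and 0.898 in black and 1.24 and 0.629 in brown skin, and both were at least 2-fold higher in white than in the other colours. Of the gamma delta T cell list, 4 of 9 genes were found, IL17A, IL17F, IL23R and BLK, all under 1 FPKM in every colour. The receptor chain genes TRDC and TRGC and the genes CD163L1, WC1 and SOX13 were not found under these names. The presence of gamma delta T cells therefore cannot be judged from this list.

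Levels of B cell markers were lower than those of the T cell genes, and the 10 markers summed to 6.31 FPKM in white, 3.77 in black and 4.60 in brown skin. MS4A1, which encodes CD20, had 0.134 FPKM in white, 0.0263 in black and 0.0181 in brown skin. JCHAIN, the joining chain of secreted antibodies, had 4.96 FPKM in brown, 1.20 in black and 0.987 in white skin. Of the 7 plasma cell markers, 4 were highest in brown, 2 in white and 1 in black, and their sum, mostly SDC1 and XBP1, which epithelial cells also express, was 353 FPKM in white skin, 343 in brown and 313 in black. MS4A1 was named after its value was seen.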
